A study of Mus musculus with 3 samples.

Results

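The genes described here encode NF-kB subunits, the IkB-type proteins that bind them, and feedback and effector genes that NF-kB is known to induce: Nfkb1, Nfkb2, Relb, Nfkbia, Nfkbiz, Bcl3, Tnfaip3, Birc3, Tnfaip2 and Icam1. Every array feature (probe set) that the platform annotation pairs with 1 of these symbols and no other was taken. This gave 20 probe sets of 9 genes, out of 34945 probe sets of 18193 genes on the array. Nfkb1 was not analysed here, because no probe set matched it under this rule. Gene expression was measured on Affymetrix mouse GeneChips in primary epidermal keratinocytes of neonatal ICR mice, with 2 RASSF9-/- arrays (homozygous for the disrupted Rassf9 gene) and 1 WT array. Per the methods each array stands for 1 mouse and 1 plate of confluent cells, kept in serum-free medium low in calcium. The sample descriptions give 48 h in culture for both RASSF9-/- samples and 24 h for WT, whereas the methods name a single duration for all of them. If the descriptions hold, genotype and culture time cannot be told apart.

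NF-kB is a family of dimeric transcription factors that IkB proteins hold inactive in the cytoplasm. Receptors for TNF, IL-1 and microbial products activate the IKK kinase complex, which marks IkB for destruction, and the freed dimers then switch on genes of inflammation and survival. Among the induced genes are the pathway's own inhibitors, so that the response is normally brief. In the epidermis, keratinocytes use this pathway to answer injury and infection. The RASSF9-/- line arose when a transgene for LMP1, a membrane protein of Epstein-Barr virus, integrated into a Rassf9 intron and removed part of it, and the homozygotes carry this transgene while WT mice do not. The methods describe a fragment with the viral gene's own promoter region, the line derives from a single founder, and LMP1 itself, which the study examined with other assays, was not analysed here. Effects of the transgene and of the loss of Rassf9 cannot be told apart in this design.

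The deposited MAS5 signals give the intensity of each probe set on a linear scale, with every array scaled to a trimmed mean of 500. The highest of 27 bacterial control probe sets had a signal of 78.4, and lower signals are called background here. The disrupted gene followed the labels, with Rassf9 signals of 59.6 and 120 on RASSF9-/- arrays 1 and 2 against 478 on the WT array, and 68.2 and 76.7 against 340 for its other probe set. The position of these probes within the gene was not analysed, and the deletion is intronic. All 9 keratinocyte markers read were above background on every array, but 5 were lower and 1 was higher on both RASSF9-/- arrays, and none passed the test. Trp63, a regulator of basal keratinocytes, had 1460 and 1543 on the RASSF9-/- arrays against 3239 on the WT array (limma, unadjusted p = 0.0182, adjusted p = 0.689), while Krt14 had 38752 and 38300 against 38140. The 3' to 5' signal ratios of the control transcripts were 0.94 and 0.83 on the RASSF9-/- arrays and 0.84 on the WT array for Gapdh, and 1.41 and 1.37 against 1.43 for Actb. Of 9 leukocyte markers, 7 and 5 were above background on RASSF9-/- arrays 1 and 2 and 4 on the WT array, with summed signals of 22126 and 5047 against 22870. S100a8, which stressed keratinocytes also express, had 19699 and 2081 against 21400, and the other 8 summed to 2427 and 2965 against 1470. Ptprc and Itgam, which define leukocytes, were in the background on all 3 arrays. Lyz2, a lysozyme of myeloid cells, had 786 and 638 on the RASSF9-/- arrays against a WT signal of 9.6 in the background, which is at least 9.03-fold higher. It is 1 of the 9 genes that passed the test across all genes (limma, adjusted p = 0.0359), with a p value that rests on that background signal. Csf1r had 792 and 1686 against 784, and Cd68 had 351 and 407 against 395. The part of these signals in the results below was not tested. WT and RASSF9-/- array 1 share the date in their array labels and RASSF9-/- array 2 has another, so the array 1 values are also the comparison within a date.

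All 9 genes measured had signals above WT on both RASSF9-/- arrays, as did 33.6% of all genes tested, and none was below WT on both, against 32.7% of all genes. The largest differences were those of Tnfaip2, Birc3 and Nfkbiz, which lay 2-fold or more above WT on both RASSF9-/- arrays, as did 2.89% of all genes tested. Icam1, Tnfaip3, Nfkb2, Nfkbia and Relb lay at smaller log2 differences, between 0.57 and 1.01, and Bcl3 was close to WT at 0.19. Over the 9 genes, each taken at its brightest probe set, the log2 fold change had a median of 0.96 (0.92 on RASSF9-/- array 1 and 0.94 on array 2). The median over all 11089 genes tested was -0.01. Both differences of a gene share the single WT array, so they are not independent. The genes described here and the lists below were chosen with earlier results of these data known. In RNA of whole cultures, fewer cells of a type and less RNA per cell cannot be told apart.

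None of the 9 genes passed the test across all genes, a comparison by limma with Benjamini-Hochberg adjustment. The adjusted p values ranged from 0.192 for Tnfaip2 to 1.00 for Relb, Bcl3 and Tnfaip3. Across all genes the test called 9 genes higher (0.0812%) and 0 lower, with 270 lower at an unadjusted p under 0.05. At an unadjusted p under 0.05 from limma, 4 of the 9 genes were higher (Tnfaip2, Nfkbiz, Birc3 and Icam1), against 3.11% of all genes. The methods name t-tests for significance without tying them to the arrays. Such a test, called the methods' t-test here, gave 1 of the 9 genes on the same values, Tnfaip2, at an unadjusted p under 0.05. That compares with 2.33% of all genes, and 0 of the 9 genes passed after Benjamini-Hochberg adjustment. The spread between arrays came from the RASSF9-/- pair alone and was assumed to hold for WT, and the small number of arrays limits what the test can show.

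**Figure D1:**
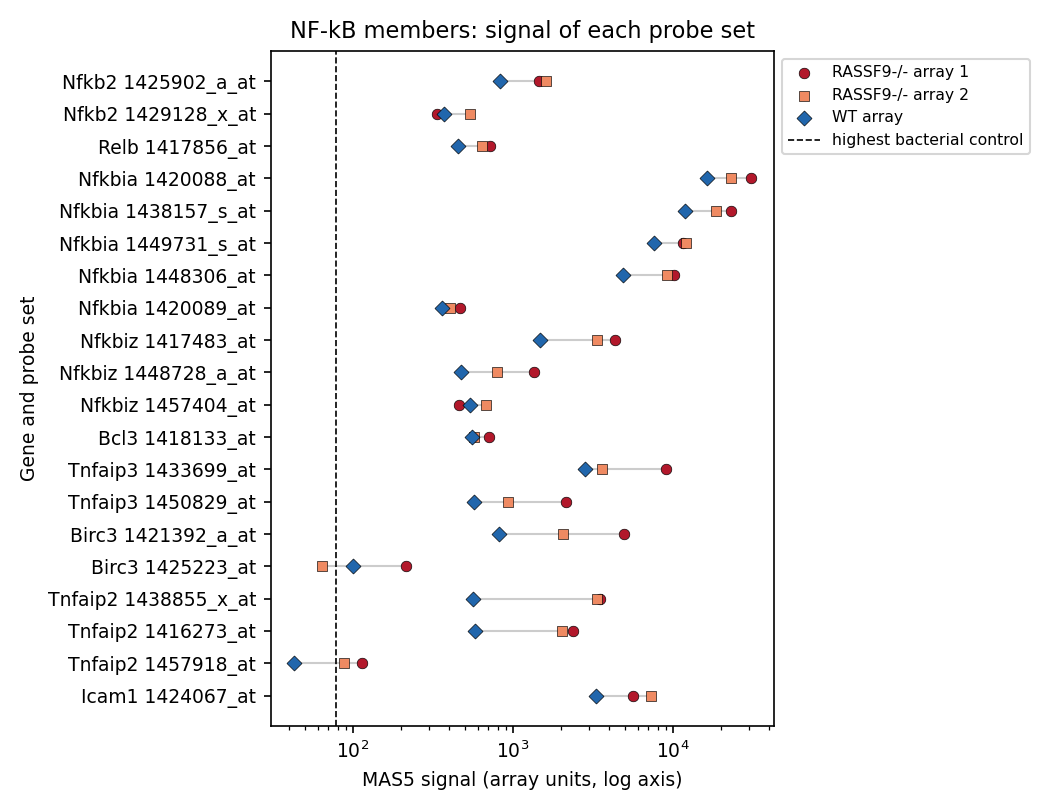
MAS5 signal (array units, log axis) of the 20 probe sets, with 1 marker for each RASSF9-/- array and for the WT array, and the bacterial control limit (78.4) drawn as a dashed line. The WT marker is the lowest of the 3 in 17 probe sets, and it lies between the RASSF9-/- markers in the other 3. The share over all probe sets was not counted.

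**Figure D2:**
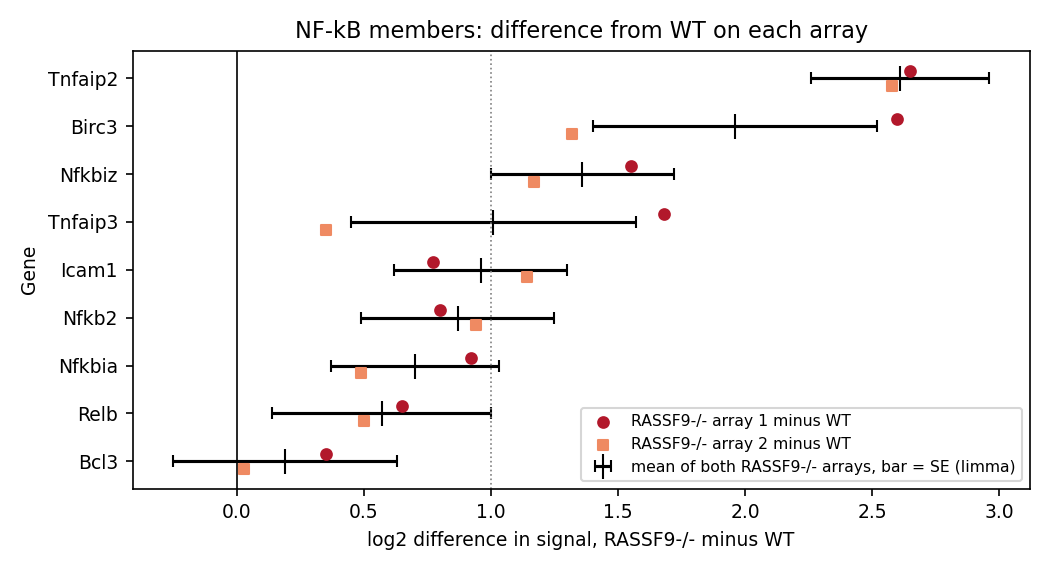
Difference in log2 signal from the WT array for the brightest probe set of each gene, with 1 marker per RASSF9-/- array, and the mean of both with its standard error from limma. Tnfaip2 has nearly the same difference on both arrays (2.65 and 2.58), while Tnfaip3 (1.68 and 0.35) and Birc3 (2.60 and 1.32) differ between them.

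NF-kB binds a short sequence, the kappaB site, and several of these genes are known to carry such sites near their start. The 250 bases before each RefSeq transcription start (build GRCm38.p6) were searched on both strands for the kappaB consensus. Start windows were found for 7 of the genes, and Nfkb1, Relb and Nfkbiz were not searched. A match was present in 6 of the 10 starts, those of Nfkb2, Nfkbia, Tnfaip3 and Tnfaip2, and in 7.25% of the 32851 windows of all genes. The windows of Bcl3, Birc3 and Icam1 held no exact match, and near matches were not counted. The Icam1 window does hold tggaaattcc, which departs from the consensus only in its first base. The Bcl3 window likewise holds gggtggcccc, which departs from it only in its t. In the 60 bases nearest the start, a length chosen after the matches were seen, 4 of the 10 starts had a match, against 1.72% of all windows. Matches overlap each other at Nfkb2, and the capitals below mark every matched base.

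These are the 60 bases that end at the start, for the genes with a match there and, for contrast, for the genes of high or middling difference without any. They are the first listed start of Nfkb2 (chr19:46304677-46304736, plus strand), Nfkbia (chr12:55492648-55492707, minus strand), the first listed start of Tnfaip3 (chr10:19015411-19015470, minus strand), Tnfaip2 (chr12:111442601-111442660, plus strand), Birc3 (chr9:7873171-7873230, minus strand) and Icam1 (chr9:21015880-21015939, plus strand), from RefSeq in build GRCm38.p6, each written 5′ to 3′ on the gene's strand.
Nfkb2: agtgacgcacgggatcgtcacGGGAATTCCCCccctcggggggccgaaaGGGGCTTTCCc
Nfkbia: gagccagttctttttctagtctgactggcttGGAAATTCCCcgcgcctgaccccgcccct
Tnfaip3: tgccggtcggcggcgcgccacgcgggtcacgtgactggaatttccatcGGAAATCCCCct
Tnfaip2: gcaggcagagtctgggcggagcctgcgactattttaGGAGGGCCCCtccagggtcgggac
Birc3: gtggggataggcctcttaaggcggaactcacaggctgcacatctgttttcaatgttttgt
Icam1: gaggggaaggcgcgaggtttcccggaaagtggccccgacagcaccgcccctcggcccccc

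A match is a description of letters and not evidence of binding. A window without a match may hold sites that depart from the consensus, and says nothing of sites elsewhere. Genes with and without a match are found at both ends of the order by difference: Tnfaip2 (2.61) has one, Birc3 (1.96) has none, Nfkbia (0.70) has one and Bcl3 (0.19) has none.

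Of the subunits, Nfkb2 and Relb were measured. Nfkb2 encodes the precursor p100, which is cut to p52, and RelB is the usual partner of p52 in the slower, noncanonical branch of the pathway. The brighter Nfkb2 probe set (1425902_a_at) had signals of 1452 and 1599 on RASSF9-/- arrays 1 and 2, against 834 on the WT array. Both RASSF9-/- signals lay above WT and close to each other. The log2 fold change was 0.87 (limma, standard error [SE] 0.38, adjusted p = 0.915), and 6.43% of the genes tested had one at least as high. The other Nfkb2 probe set (1429128_x_at), whose suffix marks probes that can bind other transcripts, gave 336 and 538 against 372, with WT between the RASSF9-/- arrays. Relb (1417856_at) had 715 and 643 on the RASSF9-/- arrays against 455 on the WT array. Its log2 fold change was 0.57 (limma, SE 0.43, adjusted p = 1.00), or 1.49-fold. Again both RASSF9-/- arrays lay above WT, by less than for Nfkb2.

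IkB-type proteins were represented by Nfkbia, Nfkbiz and Bcl3. Nfkbia encodes IkB-alpha, the classical inhibitor that is destroyed on activation and made again as an early target of NF-kB. Its 5 probe sets were all higher on both RASSF9-/- arrays. The brightest (1420088_at) had 30799 and 22862 on RASSF9-/- arrays 1 and 2 against 16321 on the WT array, a log2 fold change of 0.70 (limma, SE 0.33, adjusted p = 0.963). Another (1448306_at) had 10152 and 9115 against 4894, which is 2.07-fold and 1.86-fold of WT. The sets 1438157_s_at (23093 and 18460 against 11810) and 1449731_s_at (11508 and 12078 against 7634) also placed both RASSF9-/- arrays above WT. Both of these sets carry a suffix for probes shared between transcripts. The dimmest (1420089_at) had 464 and 404 against 360 and gave the smallest difference, 0.27. Across the 5 probe sets the mean log2 difference ranged from 0.27 to 0.98, so they shared the direction and not the size.

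Nfkbiz encodes IkB-zeta, an inducible nuclear IkB that acts as a cofactor for a subset of NF-kB targets. Its brightest probe set (1417483_at) had signals of 4348 and 3327 on the RASSF9-/- arrays against 1482 on the WT array. The log2 fold change was 1.36 (limma, SE 0.36, unadjusted p = 0.00846, adjusted p = 0.524), with 2.93-fold of WT on array 1 and 2.25-fold on array 2. A second probe set (1448728_a_at) pointed the same way, with 1343 and 796 against 473. The third (1457404_at) did not, with 460 and 680 against 540, and the mean of its RASSF9-/- arrays was within 0.05 of WT on the log2 scale. Bcl3, a nuclear IkB protein that binds p50 and p52, had 710 and 568 (1418133_at) against 556. Its log2 fold change of 0.19 (limma, SE 0.44, adjusted p = 1.00) was smaller than its standard error, and on RASSF9-/- array 2 it was 0.03.

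Tnfaip3 and Birc3 encode ubiquitin enzymes that act on the receptor complexes upstream of IKK. Tnfaip3 (A20) shuts signalling off, and Birc3 (cIAP2) is a ubiquitin ligase that also protects cells from death. Both were higher on the RASSF9-/- arrays, and in both the arrays of the pair lay far apart. Tnfaip3 (1433699_at) had signals of 8994 and 3592 on RASSF9-/- arrays 1 and 2 against 2813 on the WT array, 3.20-fold and 1.28-fold of WT. Its log2 fold change was 1.01 (limma, SE 0.56, adjusted p = 1.00). The other Tnfaip3 probe set (1450829_at) repeated this order, with 2143 and 927 against 568.

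Birc3 (1421392_a_at) had 4950 and 2040 on the RASSF9-/- arrays against 817 on the WT array. Its log2 fold change of 1.96 (limma, SE 0.56, unadjusted p = 0.012, adjusted p = 0.572) was number 121 from the top of the genes tested. The other Birc3 probe set (1425223_at) was dim, with 214 and 64.3 against 99.5. Its RASSF9-/- arrays lay on either side of WT, and array 2 was in the background. For both Tnfaip3 and Birc3 a direction is therefore common to the arrays at the brighter probe set, while the size depends on the array.

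Of the effector genes, Tnfaip2 had the largest difference of the 9 genes, and Icam1 had one of middle size. Tnfaip2 was first found as a gene induced by TNF and takes part in forming thin membrane bridges between cells. Its brightest probe set (1438855_x_at) had signals of 3508 and 3350 on RASSF9-/- arrays 1 and 2, against 560 on the WT array. The RASSF9-/- arrays nearly coincided, at 6.27-fold and 5.99-fold of WT. The log2 fold change was 2.61 (limma, SE 0.35, unadjusted p = 0.00024, adjusted p = 0.192), number 54 from the top of the genes tested.

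The suffix of that Tnfaip2 probe set marks probes that can also bind other transcripts. A second set without it (1416273_at) had 2373 and 2031 on the RASSF9-/- arrays against 582 on the WT array, a log2 fold change of 1.92 (limma, SE 0.38, adjusted p = 0.305 when such sets were left out). The third (1457918_at) was dim, with 114 and 87.2 against a WT signal of 42.5 in the background, which is at least 1.27-fold higher. All 3 sets placed both RASSF9-/- arrays above WT. Icam1, the adhesion molecule to which leukocyte integrins bind, had 5603 and 7243 (1424067_at) against 3276. Its log2 fold change was 0.96 (limma, SE 0.34, unadjusted p = 0.0296, adjusted p = 0.782), and here RASSF9-/- array 2 was the higher of the pair.

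Counted by probe set, 17 of the 20 were higher on both RASSF9-/- arrays, 3 had WT between them and 0 were lower on both. The share over all probe sets was not counted, so these counts are a description only. By gene, at the brightest probe set, 33.6% of the genes tested were higher on both. The 11 probe sets beyond the brightest of each gene gave 8 higher on both and 3 with WT between. They are further readings of the same RNA and not further samples. At the brightest sets, 7 of the 9 genes were higher on RASSF9-/- array 1 than on array 2, and Icam1 and Nfkb2 were the exceptions. Among all genes tested, 54.8% were higher on array 1. The log2 difference of array 1 from array 2 was 1.32 for Tnfaip3 and 1.28 for Birc3, a distance that 7.28% and 8.13% of genes reached. For Tnfaip2 it was 0.07, which 90.4% of genes reached or passed. The RASSF9-/- arrays differ in date, and its part in these distances was not tested.

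**Figure D3:**
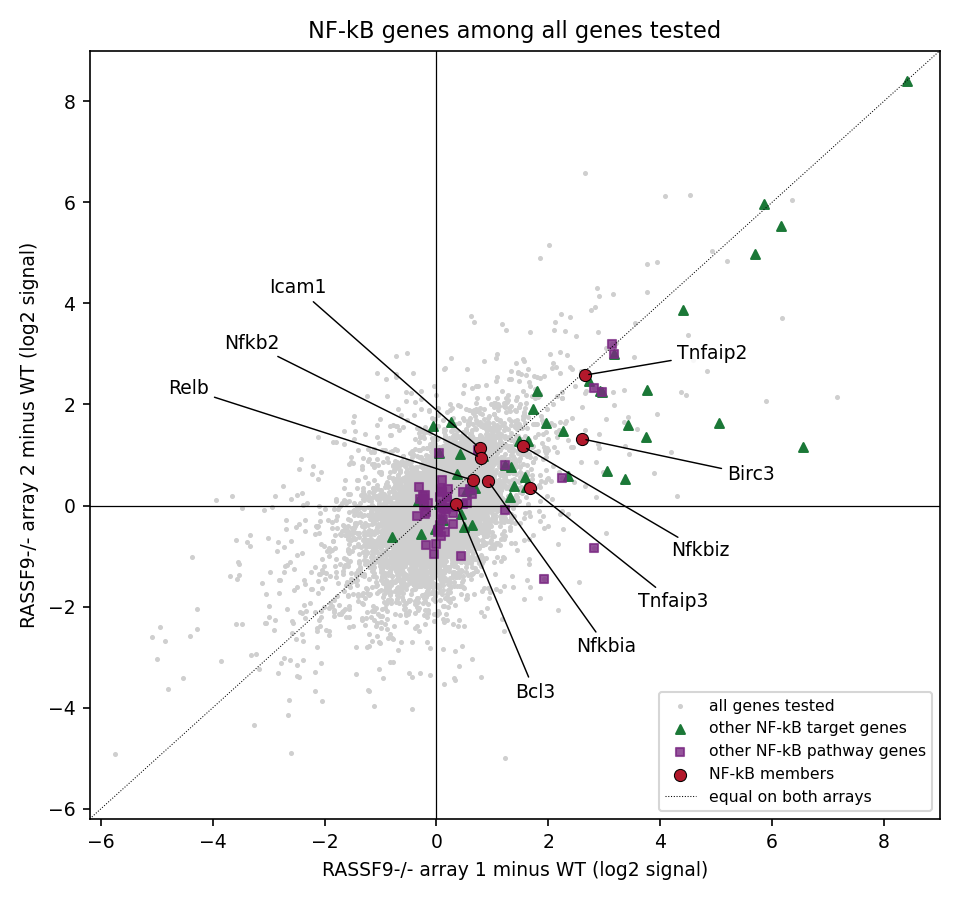
Difference in log2 signal from WT on RASSF9-/- array 1 (horizontal axis) and RASSF9-/- array 2 (vertical axis) for the 11089 genes tested (grey), the 9 genes described here (red circles), and the other genes of the pathway (purple squares) and other NF-kB targets (green triangles) that were tested. All 9 red circles lie in the upper right quadrant, while many purple squares lie near the origin.

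Other parts of the machinery were read from a list of 60 receptors, adaptors, kinases, subunits and inhibitors, of which 51 were tested. Of these, 21 were higher on both RASSF9-/- arrays, 6 were lower on both and 24 had WT between, and 4 lay 2-fold or more above WT on both. Among all genes tested, 33.6% were higher on both, 32.7% lower on both and 2.89% at 2-fold or more. None of the list passed the limma test across all genes. At an unadjusted p under 0.05, limma gave 5 higher and 0 lower, against 3.11% of all genes higher and 270 genes lower. The methods' t-test at that level gave 2 genes, counted in either direction, with 0 after adjustment. Among all genes, that t-test gave 258 higher (2.33%) and 235 lower. The list's log2 fold changes had a median of 0.08 (0.11 on RASSF9-/- array 1 and 0.06 on array 2). Rela, the main activating subunit, had signals of 3867 and 5139 on the RASSF9-/- arrays against 4440 on the WT array. Rel, which is best known from lymphocytes, had 167 and 330 against 162. The IKK subunits had signals near WT, with 1948 and 1647 against 1733 for the kinase Ikbkb and 697 and 808 against 777 for the scaffold Ikbkg. For these last 2 genes, and for Rela, WT lay between the RASSF9-/- arrays.

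The remaining IkB proteins and other inhibitors in that list differed from each other. Nfkbie, which encodes IkB-epsilon, had signals of 2103 and 1877 on RASSF9-/- arrays 1 and 2 against 234 on the WT array, a log2 fold change of 3.09 (limma, SE 0.39, adjusted p = 0.176), larger than that of any of the 9 genes. Its probe set carries a suffix for probes shared between transcripts. Nfkbib (IkB-beta) had a log2 fold change of 0.46 and Nfkbid, another nuclear IkB, one of 0.92, and neither passed the test. Tnip1, a partner of A20, had 6440 and 4778 against 2736, a log2 fold change of 1.02 (limma, adjusted p = 0.770). Irak3, a brake on Toll-like and IL-1 receptor signalling, had 469 and 146 against 99.3 and so differed between the arrays of the pair. Other negative regulators, named here after their values were seen, had no common direction. The deubiquitinase Cyld had 1991 and 1424 against 1370, above WT on both RASSF9-/- arrays, while Tnip2, Otulin and Usp18 were not. The A20 partner Tnip2 had 112 and 92.8 against 106, the deubiquitinase Otulin had 650 and 878 against 769, and Usp18 had 1866 and 149 against 265.

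Among signalling components, Ikbke, an IKK-related kinase, had 2686 and 1912 on the RASSF9-/- arrays against 384 on the WT array, a log2 fold change of 2.56 (limma, SE 0.41, adjusted p = 0.245). Traf1, an adaptor of TNF receptors, had 314 and 192 against a WT signal of 40.3 in the background, which is at least 3.13-fold higher (limma, adjusted p = 0.443). Tlr4, the receptor for bacterial lipopolysaccharide, had 182 and 190 against 20.7, also background, and was at least 2.38-fold higher (limma, adjusted p = 0.346). Traf2, another adaptor of TNF receptors, had a log2 fold change of 0.37.

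**Figure D4:**
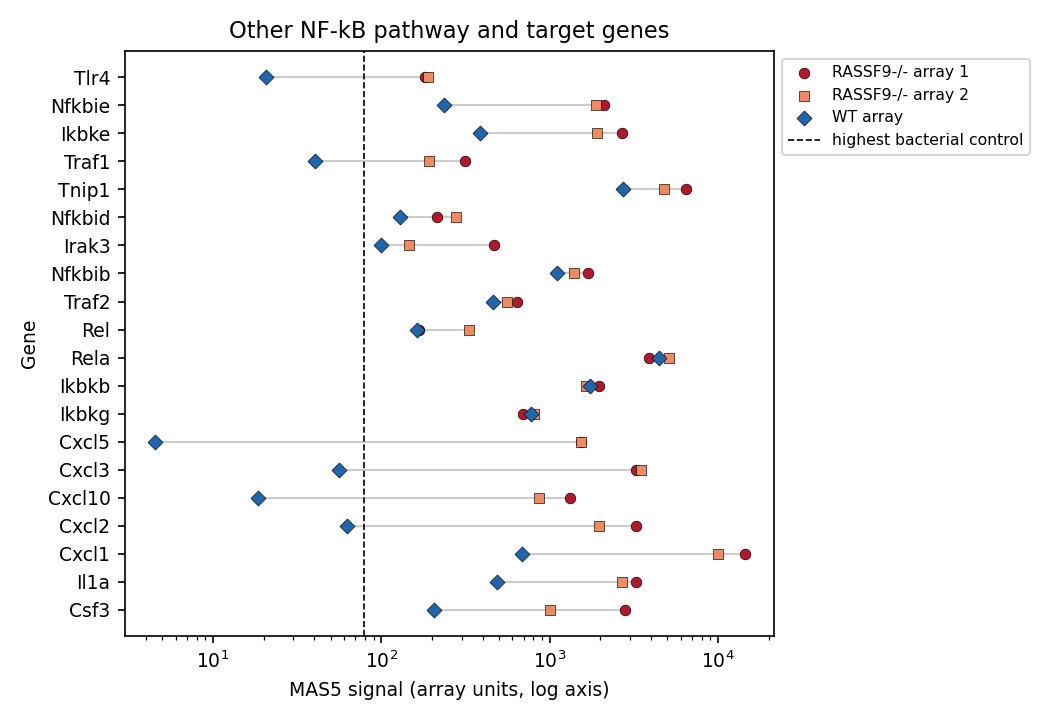
MAS5 signal (array units, log axis) of the other pathway genes and targets chosen by the naming rule given with the processing. There is 1 marker per array, and the bacterial control limit (78.4) is dashed. Genes that the text names after their values were seen are not drawn. The RASSF9-/- markers of Nfkbie, Ikbke and the 5 chemokines lie well above WT on the signal axis, while those of Rela, Ikbkb and Ikbkg lie on either side of it.

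Known NF-kB targets outside the 9 genes were read from a second list of 60, of which 49 were tested and 5 also belong to the machinery list. Of the 49, 39 were higher on both RASSF9-/- arrays, 3 were lower on both and 7 had WT between, and 20 lay 2-fold or more above WT on both, beside 33.6%, 32.7% and 2.89% of all genes for higher, lower and 2-fold or more. For 8 of the 49, and 5 of the 20, the WT signal was in the background. The list was chosen with earlier results of these data known, so its counts beside those shares are a description only. Their log2 fold changes had a median of 1.05 (1.48 on RASSF9-/- array 1 and 0.99 on array 2). Of this list, 5 genes passed the test across all genes (0.0812% of all genes did), and they are chemokines, secreted proteins that attract leukocytes: Cxcl5, Cxcl3, Cxcl10, Cxcl2 and Cxcl1. For Cxcl1, a neutrophil attractant whose WT signal was above background, the signals were 14365 and 9977 on the RASSF9-/- arrays against 683 on the WT array (log2 fold change 4.13, limma, SE 0.37, adjusted p = 0.0359). The Cxcl1 probe set carries a suffix for probes shared between transcripts. The other 4 chemokines had WT signals in the background, reached the filter on mean signal through the RASSF9-/- arrays, and have p values that rest on that background signal. Cxcl3, for example, had 3263 and 3502 on the RASSF9-/- arrays against 56.3 on the WT array and was at least 43.1-fold higher (limma, adjusted p = 0.0142). Cxcl10 had 1319 and 861 against 18.5 and was at least 13.6-fold higher (limma, adjusted p = 0.0359). None of these 5 passed when limma was run with no trend, when background signals were raised to 78.4, or after quantile normalization. Il1a, an alarm cytokine of keratinocytes, had a log2 fold change of 2.60 and Csf3, a growth factor for neutrophils, one of 3.02, and neither passed the test.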

How the data were processed

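Total RNA of primary keratinocytes from 2 RASSF9-/- mice and 1 WT mouse was hybridized, 1 array each. The authors deposited MAS5 intensity values on a linear scale, scaled to a trimmed mean of 500 (after 2% were trimmed at either end, as a check of the values showed). A MAS5 version is not given in the sources used here, and the methods name GeneSpring for the analysis. The table holds 64 control probe sets and 45037 others, of which the platform annotation gives 1 symbol for 34945, several for 932 and no symbol for 9160. Through gene IDs, 34741 matched the RefSeq table of GRCm38.p6, which changed 0 symbols. The number of arrays limits the precision, and no detection calls were used.

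Log2 signals were used without further normalization or pseudocount. Probe sets with a mean log2 signal at or above the 50th percentile (a signal of 82.7) were kept, all 9 genes passed this filter, and the brightest probe set stood for each of 11089 genes. The two-sided comparison of RASSF9-/- with WT used limma 3.58.1 (R 4.3.3, lmFit, then eBayes with trend) with Benjamini-Hochberg adjustment over all genes and an adjusted p threshold of 0.05. The fit had 1 residual and 5.31 prior degrees of freedom. It was run on simulated data that gave WT the same spread as the RASSF9-/- arrays, so that assumption was not checked. Array date was not a term, since no residual degree of freedom would remain. A lower bound on a fold sets signals under 78.4 to 78.4 and then divides the geometric mean over both RASSF9-/- arrays by WT.

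The genes and lists were chosen with earlier results of these data known. Every probe set of the 9 genes is reported. From the machinery list the text names the remaining subunits, IkB proteins and IKK subunits and up to 6 others, and from the target list up to 8, by the smaller of the changes on both RASSF9-/- arrays. Markers of keratinocytes, fibroblasts, leukocytes, neutrophils, Langerhans cells, endothelium and melanocytes were read as checks. Chuk had no value by the rule of 1 symbol and was not analysed here. Alternatives were other scalings, filters, averaging the probe sets of a gene, a pseudocount of 32, no trend, a background floor, the methods' t-test, other fold thresholds and leaving out each RASSF9-/- array. Leaving out probe sets with the suffix _s_at or _x_at was added after seeing the data.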

Additional observations from a re-analysis of the deposited data

How the results depend on the processing

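Each of the 9 genes kept a positive log2 fold change and an adjusted p above 0.05 in every alternative that gave them. Their median, 0.96, was 0.85 after averaging probe sets, 0.94 with quantile normalization, and from 0.92 to 0.94 leaving out a RASSF9-/- array. The 3 genes 2-fold or more above WT on both RASSF9-/- arrays became 1 (Tnfaip2) with the mean of probe sets, 5 at a fold of 1.5 and 1 at a fold of 3. The methods' t-test, unadjusted, gave 1 of the 9 genes. The machinery median of 0.08 was 0.01 with the mean of probe sets, 0.12 without a filter or with signals raised to the bacterial controls, and 0.13 with quantile normalization. The target median of 1.05 ranged from 0.99 to 1.48 leaving out a RASSF9-/- array. Of all genes, 9 called higher became 0 without the trend, with quantile normalization and with signals raised to the bacterial controls, 5 with the filter at the 75th percentile and with the pseudocount of 32, and 3 by the t-test after adjustment (258 unadjusted). The 0 called lower became 1 after division by the array median and by the adjusted t-test (235 unadjusted). At least 2-fold on both arrays, 320 higher and 248 lower became 126 and 112 at the 75th percentile, 1276 and 896 without a filter, 785 and 686 at a fold of 1.5, and 112 and 87 at a fold of 3. Leaving out an array gave 646 to 762 higher and 575 to 988 lower. Fewer or more genes tested, another threshold or a single array account for those counts by construction, and the cause of the others was not tested. Signals near the bacterial controls limit folds to bounds. No paired analysis was possible because the WT group has 1 array.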

Other observations

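Some other NF-kB targets, outside the rule for naming genes and chosen after their values were seen, differed between the RASSF9-/- arrays by more than any of the 9 genes. Lcn2, which encodes an iron-sequestering antimicrobial protein, had signals of 8685 and 205 on RASSF9-/- arrays 1 and 2 against 92.2 on the WT array. Saa3, an acute-phase protein, had 988 and 138 against 95.7. The opposite order was seen for Ptgs2, the inducible cyclooxygenase, with 8288 and 21930 against 6927. Among cytokines that themselves activate NF-kB, Tnf had 1782 and 1391 on the RASSF9-/- arrays against 575 on the WT array, a log2 fold change of 1.45 (adjusted p = 0.542 from limma), while Il1b had 148 and 78.4 against 106, with WT between them. Ccl20, a chemokine of epithelial cells, had 2994 and 1912 against 396, and Zc3h12a, an RNase that limits inflammatory transcripts, had 1304 and 1792 against 374. No test of a difference between the RASSF9-/- arrays was possible with 1 array each.

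The marker lists of other cell types gave no common direction. Of 7 fibroblast markers tested, 1 was higher and 4 were lower on both RASSF9-/- arrays, and the summed signals were 1406 and 1199 against 1841 on the WT array. The 5 melanocyte markers were above background on all 3 arrays, with summed signals of 22179 and 31394 against 26138. Of 4 neutrophil markers, 2 and 1 were above background on RASSF9-/- arrays 1 and 2 and 1 on the WT array, with summed signals of 281 and 243 against 162. The 4 endothelial markers had the same counts above background, with sums of 276 and 330 against 254. Of 4 Langerhans cell markers, 1 was above background on each array, and the sums were 15690 and 9701 against 11593. Epcam made up most of that last sum.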
